A study of Mus musculus with 9 samples.

Results

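Genes of iron uptake and handling were followed in MC3T3-E1 cells, a mouse preosteoblast line from calvaria (subclone 4) that lays down bone matrix under osteogenic medium. The set held 8 genes, Tfrc, Steap1, Steap2, Slc11a2, Slc40a1, Hmox1, Cp and Lcn2, of 19937 genes with expression values, and each was found by its symbol in the probe annotation. They were put together by function with their values on these arrays already known, so every call on them below is a description of these arrays and not independent evidence. All cells carried a lentiviral short hairpin RNA (shRNA) and were sorted for the green fluorescent protein of the virus. The 3 groups, each of 3 Affymetrix Mouse Gene 1.0 ST arrays that the labels call biological replicates, were cells with an shRNA against Runx2 after 9 days in osteogenic medium with ascorbic acid and beta-glycerophosphate (shRunx2 day 9), cells with a scrambled shRNA at the same time (Scr day 9) and proliferating cells with the scrambled shRNA (Scr day 0). Cells with shRunx2 at day 0 are not analysed here.

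Most cells take up iron as ferric iron on transferrin, which binds the transferrin receptor (Tfrc) and enters endosomes. There a reductase of the STEAP family makes ferrous iron, and the transporter DMT1 (Slc11a2) carries it into the cytosol. Ferroportin (Slc40a1) exports iron and works with a ferroxidase such as ceruloplasmin (Cp), heme oxygenase 1 (Hmox1) frees iron from heme, and lipocalin 2 (Lcn2) binds iron-loaded siderophores. Osteoblasts need iron for the prolyl and lysyl hydroxylases that modify collagen.

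Values are log2 expression after RMA, the array normalization the authors applied, so a difference of 1 is a change of 2-fold. Below, a gene passed, and rose or fell, if its adjusted p in limma was under 0.05 over all 19937 genes. Correlation across genes between arrays of a group was at least 0.9981, and between arrays of different groups at most 0.9969. The osteoblast marker Ibsp averaged 10.11 in shRunx2 day 9, 11.23 in Scr day 9 and 7.47 in Scr day 0 cells. The mean over 17 macrophage and neutrophil markers lay between 7.81 and 7.84 on the shRunx2 day 9 arrays, between 7.74 and 7.80 on the Scr day 9 arrays and between 7.73 and 7.79 on the Scr day 0 arrays. RNA came from whole cultures, so fewer cells of a kind and less RNA per cell cannot be told apart.

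The receptor gene Tfrc and the STEAP family gene Steap1 were far lower, and Cp far higher, after 9 days of differentiation of the control cells. Between Scr day 9 and Scr day 0 cells 6 of the 8 genes fell, Cp rose and Slc11a2 did not pass. Over all genes 17.1% fell and 14.5% rose in that comparison. With the further limit of 1.5-fold, Steap1, Tfrc and Steap2 were lower and Cp was higher, beside 2.25% of all genes lower and 2.89% higher. In 7 of the 8 genes the Scr day 9 arrays did not overlap the Scr day 0 arrays, as in 40.2% of all genes. The median log2 difference of the 8 genes was -0.408, and that of all genes -0.0158.

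**Figure D1:**
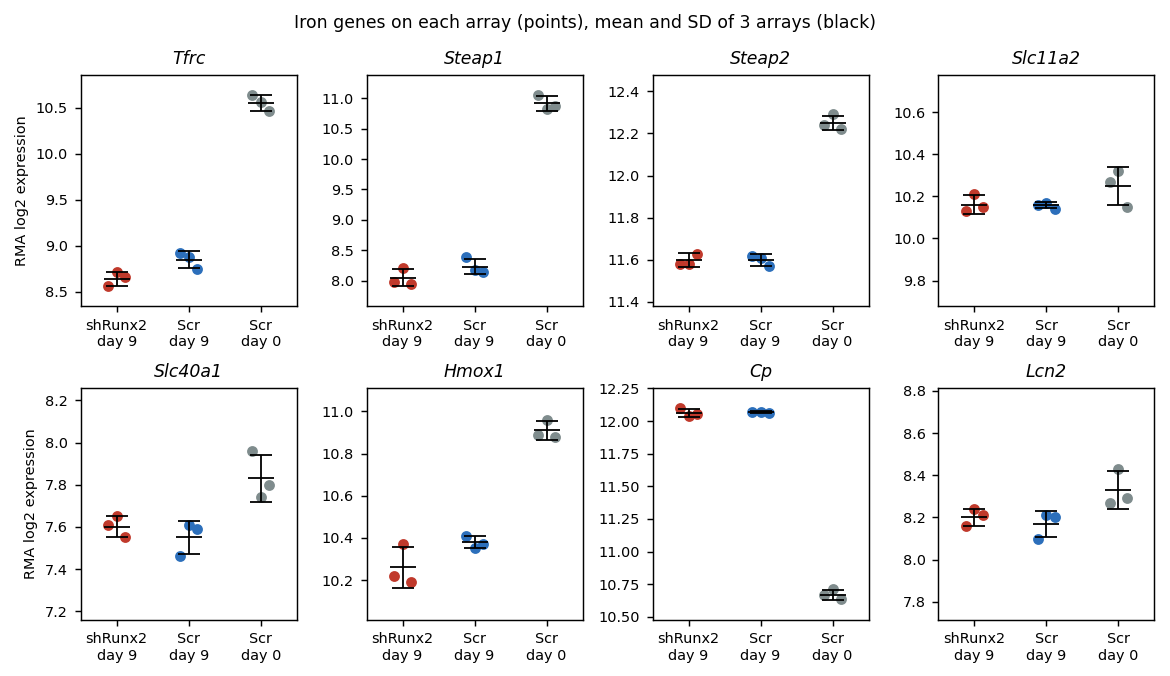
RMA log2 expression (vertical axis) of the 8 iron genes in shRunx2 day 9, Scr day 9 and Scr day 0 cells (horizontal axis), each array being a point and the bars giving mean and SD (n = 3); each panel has its own axis range. Tfrc, Steap1, Steap2 and Hmox1 stood lower and Cp stood higher in both day 9 groups than in Scr day 0 cells, and the day 9 groups lay close together.

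Steap1 and Tfrc showed the largest falls of the 8 genes. Tfrc, the receptor that brings transferrin into the cell, had log2 values of 8.92, 8.88 and 8.75 in Scr day 9 cells, against 10.64, 10.56 and 10.46 in Scr day 0 cells. No day 9 array came near a day 0 array. The log2 difference was -1.70 ± 0.0597 (SE), a 3.25-fold lower level, and it ranked 33 from the lowest among the differences of all genes. Steap1, a member of the STEAP family that lacks the reductase domain of its relatives, had values of 8.38, 8.17 and 8.14 in Scr day 9 cells, against 11.06, 10.82 and 10.88 in Scr day 0 cells. Its difference of -2.69 ± 0.0857 (SE) was a 6.47-fold fall and ranked 4 from the lowest of all genes.

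Steap2, a ferric and cupric reductase of endosomes and the plasma membrane, had values of 11.62, 11.61 and 11.57 in Scr day 9 cells, against 12.24, 12.29 and 12.22 in Scr day 0 cells. It fell by 1.57-fold (log2 difference -0.65 ± 0.0363, SE), with groups well apart. Steap2 has another probe set, annotated by a single accession, which read 6.97, 7.11 and 7.11 in Scr day 9 cells, against 7.13, 7.17 and 7.17 in Scr day 0 cells. The probe set with the higher mean was used, and with the mean of both the difference was smaller, at -0.37. Steap1 and Steap2 lie next to each other on mouse chromosome 5 in the RefSeq annotation, with no annotated gene lying wholly between them.

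Slc11a2, the transporter that moves ferrous iron out of the endosome, did not follow Tfrc and Steap1. Its values were 10.16, 10.17 and 10.14 in Scr day 9 cells, against 10.27, 10.32 and 10.15 in Scr day 0 cells, and the ranges overlapped. The log2 difference of -0.092 ± 0.0477 (SE, 95% interval -0.20 to 0.01) did not pass. It passed in 2 of 18 alternatives, with array weights (-0.11) and without Scr day 0 replicate 3, the lowest of its group (-0.14).

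To show the DNA next to the genes that moved most, the 250 bases before an annotated transcription start are given for Tfrc, Steap1 and Steap2, which fell together, and for Cp, which rose. They come from RefSeq on the build GRCm38.p6 and run 5′ to 3′ on the strand of the gene. Capitals mark matches on either strand to 4 short motifs: the Runx core TGTGGT, the CCAAT box CCAAT, the TATA box TATAAA and the GC box GGGCGG.
Tfrc, chr16:32608646-32608895, plus strand: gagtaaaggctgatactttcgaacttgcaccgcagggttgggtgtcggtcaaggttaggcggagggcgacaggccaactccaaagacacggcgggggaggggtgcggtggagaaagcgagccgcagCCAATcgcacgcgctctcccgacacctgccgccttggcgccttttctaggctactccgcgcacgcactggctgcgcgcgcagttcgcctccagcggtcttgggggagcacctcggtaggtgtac
Steap1, chr5:5749318-5749567, minus strand: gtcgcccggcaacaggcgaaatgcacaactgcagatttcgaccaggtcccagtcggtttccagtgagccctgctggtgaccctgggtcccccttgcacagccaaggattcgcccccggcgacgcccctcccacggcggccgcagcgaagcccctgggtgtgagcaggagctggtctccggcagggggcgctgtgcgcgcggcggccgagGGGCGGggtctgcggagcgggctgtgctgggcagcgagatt
Steap2, chr5:5694569-5694818, minus strand: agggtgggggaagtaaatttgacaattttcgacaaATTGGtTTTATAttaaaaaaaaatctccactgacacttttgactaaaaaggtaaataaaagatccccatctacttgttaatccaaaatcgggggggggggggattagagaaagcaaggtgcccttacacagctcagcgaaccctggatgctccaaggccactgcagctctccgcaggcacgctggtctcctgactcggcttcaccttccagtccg
Cp, chr3:19956999-19957248, plus strand: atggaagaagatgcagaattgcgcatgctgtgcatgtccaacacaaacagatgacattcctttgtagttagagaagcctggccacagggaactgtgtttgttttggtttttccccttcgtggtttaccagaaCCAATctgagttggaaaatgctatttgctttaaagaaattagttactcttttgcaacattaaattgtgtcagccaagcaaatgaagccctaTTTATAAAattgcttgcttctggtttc

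Among the starts with a window, these are the most upstream for Tfrc and Steap2. For Cp it is the start further downstream, whose window held matches. The RefSeq gene bounds of Steap2 (base 5694649) and Cp (base 19956933) lie upstream of all their starts with a window. Distances are counted from the start that each window precedes. TGTGGT, the core of the motif that Runx proteins bind, had no match in any of the 9 windows found for the genes, which covered Tfrc, Steap1, Steap2, Cp and Lcn2 (5 of the 8 genes), while 14% of all 32851 windows in the RefSeq table held it. The Tfrc window had a CCAAT box 124 bases before the start, and 33.8% of all windows had one. The Steap1 window had a GC box 41 bases before the start, and so did the window of the downstream Tfrc start at 35 bases (32.7% of all windows). GC boxes were also found 221 and 178 bases before the most downstream Steap2 start with a window and, reversed, 94 bases before the Lcn2 start. The Steap2 window shown had a reversed CCAAT box at 215 bases and a reversed TATA box at 209 bases. In the Cp window a TATA box lay 25 bases before the start, overlapping a reversed one at 27 bases, and a CCAAT box lay at 118 bases (12.4% of all windows held a TATA box). These matches describe the letters alone, and binding was not measured on these arrays. The study did map Runx2 binding in this cell line by sequencing bound DNA, and placed most of it in intergenic and intronic regions. Those binding data were not read here.

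On the side of export, the ferroxidase and the exporter moved in opposite directions. Cp, the copper enzyme that oxidizes iron as it leaves cells, had values of 12.07, 12.07 and 12.06 in Scr day 9 cells, against 10.67, 10.71 and 10.64 in Scr day 0 cells. The rise was 2.62-fold (log2 difference 1.39 ± 0.0354, SE) and ranked 101 from the highest of all genes. Slc40a1, the only known iron exporter of mammalian cells, read 7.46, 7.61 and 7.59 in Scr day 9 cells, against 7.96, 7.74 and 7.80 in Scr day 0 cells. It fell by 1.22-fold (-0.28 ± 0.0596, SE). No background level was used here, so how far Slc40a1 stood above background is unknown, and this fold is that of the measured values only. The same holds for Lcn2 below and for the folds of Steap1, whose values were low in both day 9 groups. Other folds below that rest on low values carry the same limit. Among them are those of Il6 (mean 5.84 in Scr day 9 cells) and Slc7a11 (7.22 in shRunx2 day 9 cells). Phex (7.36) and Ibsp (7.47) were low in Scr day 0 cells.

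Hmox1, the enzyme that opens the heme ring and releases its iron, had values of 10.41, 10.35 and 10.37 in Scr day 9 cells, against 10.89, 10.96 and 10.88 in Scr day 0 cells. It fell by 1.45-fold (-0.53 ± 0.0494, SE) with no overlap of the arrays. Lcn2, a secreted protein of innate immunity that osteoblasts also release, read 8.10, 8.21 and 8.20 in Scr day 9 cells, against 8.27, 8.43 and 8.29 in Scr day 0 cells. The arrays did not overlap, but the gap was small, and Lcn2 was lower by 1.12-fold (-0.17 ± 0.0509, SE). Its call was lost without Scr day 9 replicate 1 (-0.13) or without Scr day 0 replicate 2 (-0.11).

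Expression at day 9 was then compared between shRunx2 and Scr cells to see whether depletion of Runx2 altered these genes. The paper describes its knockdown as efficient but incomplete, so a gene that did not pass is not shown to be independent of Runx2. None of the 8 passed in either direction, while 2.73% of all genes were higher and 4.66% lower in shRunx2 cells (0.396% and 0.196% with the limit of 1.5-fold). At an unadjusted p under 0.05 limma gave 2 of the 8, Tfrc and Hmox1, beside 19.6% of all genes. The largest absolute log2 difference among the 8 was 0.21, and Tfrc was the only gene whose shRunx2 and Scr day 9 arrays did not overlap, as happened in 23.7% of all genes.

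Tfrc had values of 8.56, 8.71 and 8.66 in shRunx2 cells, against 8.92, 8.88 and 8.75 in Scr day 9 cells. All shRunx2 arrays lay below all Scr day 9 arrays. The log2 difference was -0.21 ± 0.0597 (SE, 95% interval -0.34 to -0.08), a 1.16-fold lower level, and it did not pass (limma, adjusted p = 0.0604). It passed in 4 of 18 alternatives, in a range of adjusted p of 0.0139 to 0.225, among them the fit without Scr day 9 replicate 3 (-0.26).

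Steap1 read 7.98, 8.21 and 7.95 in shRunx2 cells, against 8.38, 8.17 and 8.14 in Scr day 9 cells, and shRunx2 replicate 2 lay among the control arrays. The difference was -0.18 ± 0.0857 (SE, interval -0.37 to 0.01). Hmox1 read 10.22, 10.37 and 10.19 in shRunx2 cells, against 10.41, 10.35 and 10.37 in Scr day 9 cells. There too shRunx2 replicate 2 overlapped the controls, and the difference of -0.12 ± 0.0494 (SE, interval -0.23 to -0.01) passed only when that array was left out (-0.17).

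The other 5 genes were close to level between the day 9 groups. Cp had values of 12.10, 12.04 and 12.05 in shRunx2 cells, against 12.07, 12.07 and 12.06 in Scr day 9 cells, with a difference of -0.002 (interval -0.08 to 0.08). Steap2 had values of 11.58, 11.58 and 11.63 in shRunx2 cells, against 11.62, 11.61 and 11.57 in Scr day 9 cells (difference -0.003, interval -0.08 to 0.08). These intervals leave out changes of the size seen between Scr day 9 and Scr day 0 in the same genes.

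Slc11a2 read 10.13, 10.21 and 10.15 in shRunx2 cells, against 10.16, 10.17 and 10.14 in Scr day 9 cells (difference 0.007, interval -0.10 to 0.11). Slc40a1 read 7.61, 7.65 and 7.55 in shRunx2 cells, against 7.46, 7.61 and 7.59 in Scr day 9 cells (difference 0.05, interval -0.08 to 0.18). Lcn2 read 8.16, 8.24 and 8.21 in shRunx2 cells, against 8.10, 8.21 and 8.20 in Scr day 9 cells (difference 0.036, interval -0.08 to 0.15). In all of these the arrays of the groups overlapped.

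**Figure D2:**
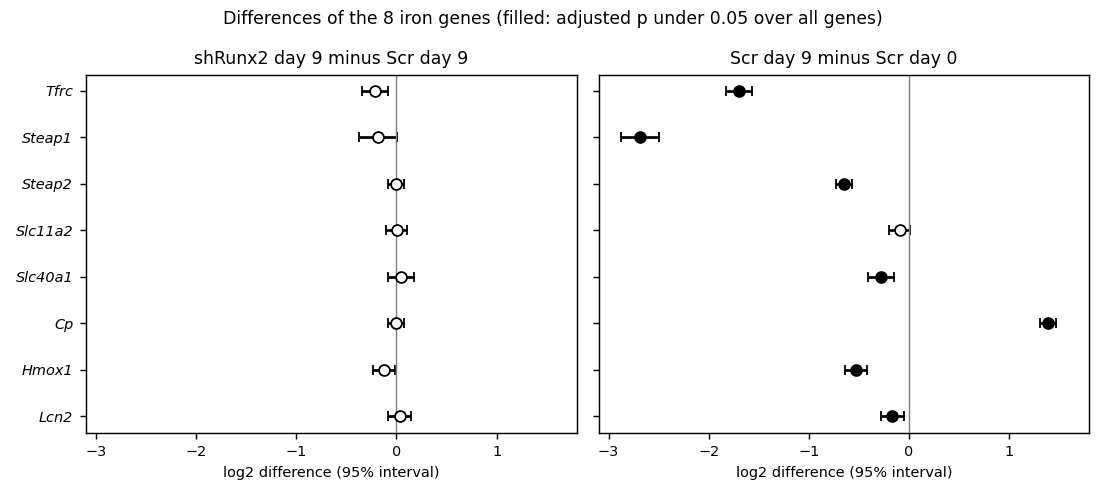
Log2 differences (horizontal axis, with 95% intervals from limma) of the 8 iron genes (vertical axis) for shRunx2 day 9 minus Scr day 9 (left) and Scr day 9 minus Scr day 0 (right), where filled points had an adjusted p under 0.05 over all genes. Steap1 (-2.69) and Tfrc (-1.70) lie far to the left and Cp (1.39) to the right of 0 on the right side, whereas no gene on the left side lies beyond 0.21 from 0.

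The knockdown cells were also set against undifferentiated cells. This comparison shares its arrays with both others, so its values are not a repeat of them. In shRunx2 day 9 cells against Scr day 0 cells, 5 of the 8 genes were lower and Cp was higher, beside 20.4% of all genes lower and 13.8% higher. Steap1 averaged 8.05 ± 0.144 in shRunx2 day 9 cells and 10.92 ± 0.121 in Scr day 0 cells (SD, n = 3 each), a 7.33-fold fall. Tfrc averaged 8.64 ± 0.0756 in shRunx2 day 9 cells and 10.55 ± 0.0866 in Scr day 0 cells, a 3.75-fold fall. Hmox1 was lower by 1.57-fold, Steap2 by 1.57-fold and Slc40a1 by 1.18-fold, and Cp was higher by 2.62-fold. Slc11a2 (-0.084) and Lcn2 (-0.13) did not pass.

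Other genes of iron metabolism were taken from a list by function, in which 68 of 71 genes had values. Between Scr day 9 and Scr day 0 cells 15 rose, 12 fell and 41 did not pass, so that 39.7% passed, beside 31.6% of all genes. The median log2 difference of the list was 0.018. By at least 1.5-fold 2 rose, Steap4 and Hfe, and 1 fell, Slc39a14. Calls were thus split in direction. The largest absolute log2 difference was 0.68, so all were smaller than those of Tfrc, Steap1 and Cp.

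Among the other import and reduction genes 3 of 9 rose, 2 fell and 4 did not pass. Here and in the groups below, the shares of all genes are 14.5% higher and 17.1% lower, and the groups are small. Slc39a14, which carries iron that is not bound to transferrin, read 9.91, 9.89 and 9.74 in Scr day 9 cells, against 10.51, 10.43 and 10.48 in Scr day 0 cells (-0.62 ± 0.0475, SE; limma, adjusted p = 1.24e-06). Steap3 and Steap4, the remaining STEAP genes, went the opposite way from Steap1 and Steap2. Steap4 read 8.73, 8.57 and 8.52 in Scr day 9 cells, against 8.0, 8.07 and 7.85 in Scr day 0 cells, a 1.55-fold rise (limma, adjusted p = 1.11e-05), and Steap3, the reductase of erythroid endosomes, rose 1.20-fold (adjusted p = 0.000699). The transferrin gene Trf did not pass (0.017 ± 0.0652, SE).

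Of 9 genes of iron storage and sensing 1 rose, 1 fell and 7 did not pass. Fth1, the ferritin heavy chain, read 13.82, 13.77 and 13.81 in Scr day 9 cells, against 13.76, 13.70 and 13.77 in Scr day 0 cells, and did not pass (0.054 ± 0.0407, SE). Ftl1, the light chain, did not pass either, with a wider error (-0.30 ± 0.115, SE), and it passed without Scr day 9 replicate 1 or Scr day 0 replicate 1, in a range of adjusted p over the alternatives of 0.00335 to 0.276. Ferritin genes have near-identical copies in the mouse genome that a probe set may also read. Of the iron regulatory proteins, which bind iron-responsive elements in mRNAs such as that of Tfrc, Aco1 fell (-0.18 ± 0.0404, SE; adjusted p = 0.00397) and Ireb2 did not pass (-0.064 ± 0.0553, SE), except without Scr day 0 replicate 3 (adjusted p = 0.0426, the lowest of a range up to 0.893).

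In the ferroxidase and hepcidin group 1 of 9 genes rose, 1 fell and 7 did not pass. Hfe, whose protein binds the transferrin receptor, read 9.30, 9.26 and 9.28 in Scr day 9 cells, against 8.58, 8.51 and 8.70 in Scr day 0 cells, a 1.60-fold rise (limma, adjusted p = 9.39e-07). Heph, the membrane ferroxidase related to Cp, did not pass (0.019 ± 0.0356, SE), with means of 7.37 in Scr day 9 and 7.35 in Scr day 0 cells. Mitochondrial iron and iron-sulfur cluster genes rose in 5 and fell in 2 of 16 cases. Heme synthesis genes rose in 2 and fell in 4 of 10 cases, among them Cpox, coproporphyrinogen oxidase, which was 1.45-fold lower (adjusted p = 8.48e-06).

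Heme breakdown and transport genes besides Hmox1 rose in 1 and fell in 2 of 11 cases. Hmox2, the heme oxygenase that is made without induction, did not pass (-0.060 ± 0.0385, SE). The last group held 4 genes, those of siderophore and lactoferrin handling and the ferritin receptor gene Scara5, and 2 rose. Scara5, a scavenger receptor that takes up ferritin in mouse kidney, read 10.49, 10.57 and 10.45 in Scr day 9 cells, against 9.85, 9.92 and 10.02 in Scr day 0 cells (0.58 ± 0.0505, SE; limma, adjusted p = 4.04e-06).

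Upon knockdown, 4 of these 68 genes passed, or 5.88%, beside 7.39% of all genes, with 1 higher and 3 lower in shRunx2 cells. Scara5 read 10.05, 10.10 and 10.06 in shRunx2 cells, against 10.49, 10.57 and 10.45 in Scr day 9 cells. It was 1.35-fold lower (-0.43 ± 0.0505, SE; limma, adjusted p = 0.000304), and all shRunx2 arrays lay below all Scr day 9 arrays. Glrx5, a glutaredoxin of mitochondrial iron-sulfur cluster assembly, read 10.17, 10.15 and 10.32 in shRunx2 cells, against 9.91, 9.81 and 9.83 in Scr day 9 cells. It was 1.29-fold higher (0.36 ± 0.0503, SE; adjusted p = 0.00106).

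The iron-sulfur protein gene Cisd2 (-0.18 ± 0.0443, SE; adjusted p = 0.0343) and the endolysosomal channel gene Mcoln1 (-0.16 ± 0.0432, SE; adjusted p = 0.0434) were lower by less. The call of Cisd2 was lost without any 1 of the Scr day 9 arrays or without shRunx2 replicate 1 or 3, in a range of adjusted p of 0.0118 to 0.134. That of Mcoln1 held in 7 of 18 alternatives and was lost without any 1 of the day 9 arrays or without Scr day 0 replicate 2 or 3, in a range of 0.00609 to 0.176. Steap3 (0.076 ± 0.0437, SE), Steap4 (0.055 ± 0.0627), Fth1 (0.089 ± 0.0407), Ftl1 (0.15 ± 0.115), Aco1 (-0.089 ± 0.0404), Ireb2 (-0.038 ± 0.0553), Trf (0.14 ± 0.0652), Heph (-0.022 ± 0.0356) and Hmox2 (-0.093 ± 0.0385) did not pass.

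**Figure D3:**
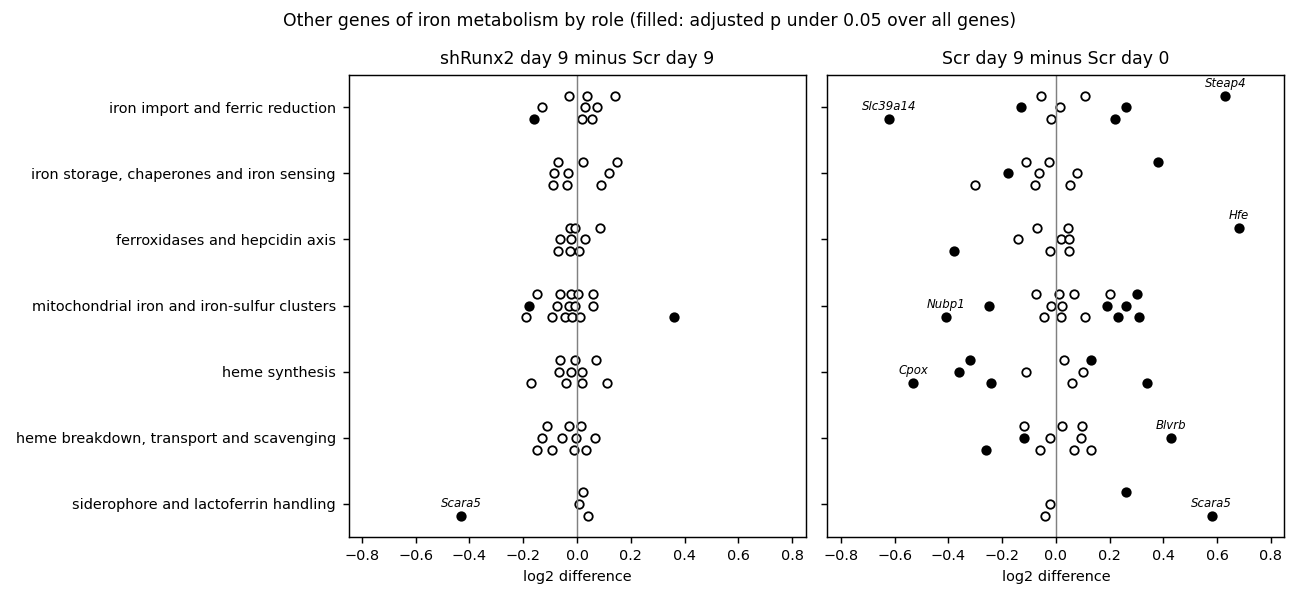
Log2 differences (horizontal axis) of 68 other genes of iron metabolism, 1 point per gene, grouped by role (vertical axis), for shRunx2 day 9 minus Scr day 9 (left) and Scr day 9 minus Scr day 0 (right); filled points had an adjusted p under 0.05 over all genes, points are spread vertically for sight only, and genes at least 0.4 from 0 are named. On the right Steap4, Hfe and Scara5 lie among the highest and Slc39a14 and Cpox among the lowest, and on the left Scara5 (-0.43) lies furthest from 0.

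For shRunx2 day 9 against Scr day 0 cells, 30 of the 68 passed, 16 of them higher and 14 lower (44.1%, beside 34.2% of all genes). The smallest adjusted p values belonged to Slc39a14, which averaged 9.72 in shRunx2 day 9 and 10.47 in Scr day 0 cells, Cpox (8.96 in shRunx2 day 9 and 9.66 in Scr day 0 cells), Hfe (9.21 in shRunx2 day 9 and 8.60 in Scr day 0 cells) and Glrx5 (10.21 in shRunx2 day 9 and 9.62 in Scr day 0 cells).

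Hmox1 is induced by the transcription factor NRF2, so other known NRF2 targets were read beside it. Of 12 with values, 8 fell, 1 rose and 3 did not pass between Scr day 9 and Scr day 0 cells, beside 17.1% of all genes lower. The gene that rose was Sqstm1 (0.12), which is named after its value was seen. The median of the list was -0.473. Me1, malic enzyme, was 2.28-fold lower, Slc7a11, the cystine transporter, 2.27-fold lower and Nqo1, a quinone reductase, 2.23-fold lower (limma, adjusted p = 5.92e-10, 1.11e-08 and 1.19e-07). Upon knockdown 10 of the 12 did not pass, 1 fell and 1 rose (16.7% passed, beside 7.39% of all genes). In shRunx2 cells Slc7a11 fell by 1.61-fold (limma, adjusted p = 1.09e-05), and Osgin1 rose by 1.13-fold (adjusted p = 0.0395). The call of Osgin1 held in 7 of 18 alternatives, in a range of 0.00392 to 0.13, and was lost without any 1 of the day 9 arrays or without Scr day 0 replicate 3.

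**Figure D4:**
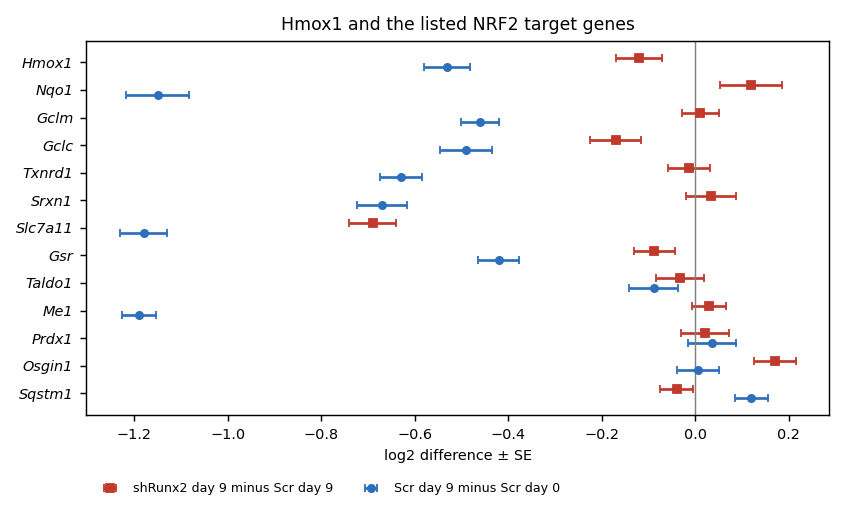
Log2 differences with the SE from limma (horizontal axis) of Hmox1 and 12 NRF2 target genes (vertical axis), for shRunx2 day 9 minus Scr day 9 (red squares) and Scr day 9 minus Scr day 0 (blue circles). Hmox1 (-0.53) lies among the 8 targets that fell between Scr day 9 and Scr day 0 cells (all at -0.42 or lower), while between shRunx2 and Scr day 9 cells Slc7a11 (-0.69) alone lies far from 0.

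Lcn2 is an acute phase gene under NF-kappaB, and other genes of that kind were read in the same fit. Upon knockdown 4 of 10 with values rose, beside 2.73% of all genes, and the other 6 did not pass. Cfb, a complement factor, and the chemokine gene Ccl2 were each 1.30-fold higher (limma, adjusted p = 8.01e-05 and 0.00151) and the protease inhibitor gene Serpina3n 1.22-fold higher. Serpina3n held in 13 of 17 alternatives (adjusted p of 0.00152 to 0.0574) and was lost when shRunx2 replicate 1 or 3, or replicate 2 of Scr day 9, was left out. Il6, an inflammatory cytokine, was 1.30-fold higher with overlapping arrays, and its call held in 6 of 17 alternatives (0.00481 to 0.134) and was lost without any 1 of the Scr day 0 arrays, or without replicate 2 or 3 of either day 9 group. Between Scr day 9 and Scr day 0 cells 2 rose, 2 fell and 6 did not pass (14.5% of all genes rose and 17.1% fell). There Il6 was 3.38-fold lower and Nfkbiz, a nuclear regulator of NF-kappaB, 1.37-fold lower, while Cfb was 1.16-fold and Serpina3n 1.13-fold higher. That call of Serpina3n held in 9 of 17 alternatives (0.0226 to 0.111) and was lost without any 1 of the Scr day 9 arrays, shRunx2 replicate 1 or Scr day 0 replicate 1.

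Macrophages and neutrophils also express Hmox1, Slc40a1 and Lcn2, so their markers were read in the same fit. Of 17 markers, 2 rose (Lyz2 and Fcer1g), 2 fell (Cd14 and Ly6g) and 13 did not pass between Scr day 9 and Scr day 0 cells, so that 23.5% passed, beside 31.6% of all genes. Upon knockdown 2 rose (Lyz2 and Ly6g), 1 fell (Fcer1g) and 14 did not pass, so that 17.6% passed, beside 7.39% of all genes. Lyz2 held in 12 of 17 alternatives (adjusted p of 0.0014 to 0.0657) and was lost without replicate 2 or 3 of either day 9 group. Ly6g held in 9 of 17 (0.00725 to 0.164) and was lost without any 1 of the shRunx2 arrays, without Scr day 9 replicate 1 or 2, or without Scr day 0 replicate 2. The cultures were of a sorted preosteoblast line. Whether macrophages or neutrophils were present, or added to the values of the iron genes, was not tested. Of 8 osteoblast markers 5 rose and 3 did not pass between Scr day 9 and Scr day 0 cells (14.5% of all genes rose), and upon knockdown 4 fell and 4 did not pass (4.66% of all genes fell). Phex was 3.83-fold, Ibsp 2.18-fold and Alpl 1.68-fold lower in shRunx2 cells, and between Scr day 9 and Scr day 0 cells Ibsp was 13.6-fold, Phex 5.39-fold and Sp7 2.07-fold higher.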

How the data were processed

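RNA of 9 cultures was hybridized to 1 Affymetrix Mouse Gene 1.0 ST array each. The deposited values are log2 expression that the authors made by RMA, which corrects background, normalizes quantiles over arrays and sums up probes by median polish. The submitters' notes name RMA and limma. The methods also name a filter without detail, and the genome build behind the array annotation is not given in the sources used here. RMA draws arrays together, so a shift shared by most genes is not seen. With 3 arrays a group, precision is limited by the number of arrays.

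Of 34760 probe sets, 21640 carried 1 gene symbol, 1321 several and 11799 were unnamed here. Where a gene had several, the probe set with the highest mean over 9 arrays was kept (954 genes), which left 19937 genes. Of 19938 gene identifiers, 19855 were in the RefSeq table of GRCm38.p6, and no symbol changed.

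All 9 arrays entered 1 limma 3.58.1 model of group means (R 4.3.3, lmFit and eBayes, two-sided) with Benjamini-Hochberg adjustment over all genes. No covariate or intensity filter was used. The same function was tested on simulated data. The members and lists were chosen with earlier results of these data known. Named were the 8 genes, 9 iron genes set by name, the 4 iron genes with the smallest adjusted p in each comparison and the 3 of each other list in each of the comparisons between neighbouring groups. Beyond this rule, Il6 upon knockdown and Serpina3n, Ly6g and Sqstm1 between Scr day 9 and Scr day 0 cells are also named. Likeness was Pearson's r over 9 arrays among genes whose group means spanned at least 0.58. Runx2 itself is not analysed here.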

Additional observations from a re-analysis of the deposited data

How the results depend on the processing

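Each result was computed again under 18 alternatives, of which 9 changed the treatment of the data and 9 left out 1 array each. For the counts of calls, 148 values stayed within 1.5 times the main count and 14 did not. Those 14 all concern shRunx2 against Scr day 9. There 1474 genes passed, against 816 with every probe set tested (which adjusts over more rows), 2590 with array weights, and 858 to 1502 when 1 array was left out. None of the 8 iron genes passed, against 1 (Tfrc) after renewed quantile normalization, 1 (Tfrc) with the 6 of the 8 above the median expression, 1 (Tfrc) with array weights and 0 to 1 when 1 array was left out. Of the other iron genes 4 passed, against 2 with every probe set tested and 2 to 6 when 1 array was left out. Differences close to 0 changed sign. Cp (-0.002) was 0.036 after quantile normalization and lay between -0.019 and 0.01 with 1 array left out. Steap2 (-0.003) was 0.031 after quantile normalization, 0.027 as the mean of its probe sets and between -0.021 and 0.008 with 1 array left out, and Slc11a2 (0.007) lay between -0.019 and 0.024. The cause was not tested. Between Scr day 9 and Scr day 0 cells, 7 of the 8 genes passed, and 6 to 8 when 1 array was left out. The falls of Tfrc, Steap1, Steap2, Slc40a1 and Hmox1 and the rise of Cp passed in every alternative in which the gene was tested. Lcn2 (limma, adjusted p = 0.0272) was lost in 4 of 17 alternatives, in a range of 0.00549 to 0.111.

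Groups share replicate numbers in the labels, but same-numbered arrays did not deviate together in all pairs (correlations of deviations from group means of -0.114 to 0.294). Between Scr day 0 and Scr day 9, same-numbered arrays gave 0.294, 0.082 and 0.285, and differently numbered ones -0.293 to 0.11. Same-numbered pairs with an shRunx2 array gave -0.114 to 0.129. With the replicate number as a block, 1450 genes passed for shRunx2 against Scr day 9, and of the 8 iron genes 0 passed there, 7 for Scr day 9 against Scr day 0, and 7, against 6 without the block, for shRunx2 day 9 against Scr day 0, the added gene being Lcn2. The block also ended the knockdown calls of Osgin1 (limma, adjusted p = 0.059) and Il6 (0.0599).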

Other observations

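Genes whose profile over the 9 arrays was most like each iron gene were looked up among 1339 genes whose group means spanned at least 0.58. All such profiles share the 9 arrays and their 3 groups, and the correlations are a description. Dock5 and Gprc5a (r = 0.999 each) were closest to Tfrc, Cdk18 and Pgm1 (0.998 each) to Steap1, and Susd6 (0.999) and Tgfbi (0.998) to Steap2. Mif (0.997) and Cks1b (0.996), a subunit of cyclin-dependent kinases, were closest to Hmox1. Sned1 and Gxylt2 (0.999 each) were closest to Cp, and they averaged 11.93 and 12.56 in shRunx2 day 9, 11.95 and 12.58 in Scr day 9, and 9.89 and 11.40 in Scr day 0 cells. For Slc40a1, Cd24a (0.959) and Specc1 (0.946) came first. Lower r came first for Slc11a2 (0.836 for Lpcat2 and 0.813 for Snord16a) and for Lcn2 (0.86 for Rin1 and 0.859 for Chst1). Among the iron genes themselves r was 0.997 for Tfrc with Steap1, 0.985 for Tfrc with Hmox1 and -0.991 for Tfrc with Cp, against 0.68 for Tfrc with Slc11a2.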
